A study of Drosophila melanogaster with 4 samples.

Results

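The bithorax complex of Drosophila melanogaster is a stretch of chromosome arm 3R that carries the Hox genes Ubx, abd-A and Abd-B. Its members here are all H3K4me1-enriched regions that overlap 3R:12480000-12810000 (FlyBase release 5, 330 kb) by at least 1 base. There were 53 such regions among the 9501 enriched regions of the combined list, 19 of 7177 in replicate 1 and 41 of 9903 in replicate 2. H3K4me1, monomethylation of lysine 4 of histone H3, was mapped by chromatin immunoprecipitation and sequencing (ChIP-seq) in nuclei of third-instar larvae of the wild-type strain Oregon-R. The 4 samples were 2 ChIP samples (replicates 1 and 2), made with a single lot of the antibody ab8895 (new lot 2 in the labels), and 2 inputs of chromatin without immunoprecipitation. All 4 shared strain, genotype and stage, so there is a single ChIP group and no treatment. The inputs have no region list here and entered only, as the labels tell, as background to the ChIP list of matching number. A region list holds no value by which the labelled stage or tissue could be checked. The combined list is the authors' list for the whole series, and it rests on the same 2 ChIP samples.

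Within these bounds Ubx lies at about 12482000 to 12560000 (78 kb), abd-A at about 12632000 to 12656000 (24 kb) and Abd-B at about 12752000 to 12798000 (46 kb). The interval between Ubx and abd-A spans 72 kb and that between abd-A and Abd-B spans 96 kb. These bounds are approximate, and exons, introns and UTRs of release 5 were not used here. In the RefSeq gene table of release 6, used for names and order only, all 3 Hox genes were found. That table places lncRNA:bxd and the sugar transporter gene Glut3 between Ubx and abd-A, and lncRNA:iab4, lncRNA:iab8, mir-iab-4 and mir-iab-8 between abd-A and Abd-B.

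Hox genes encode homeodomain transcription factors that give the segments of the body their identity. In the fly, Ubx specifies the posterior thorax and the first abdominal segment, abd-A the middle abdomen and Abd-B the posterior abdomen and genital segments. The 3 genes are transcribed towards lower coordinates, and long stretches of regulatory DNA in their introns and between them (abx/bx within Ubx, bxd/pbx beyond it, the iab regions around abd-A and Abd-B) drive each gene in its own segments. Polycomb group proteins keep these genes silent in cells where they are off. H3K4me1 is known from enhancers and from the flanks of active promoters. Whole larvae hold many tissues, so a mark in fewer cells and a weaker mark per cell cannot be told apart in these lists.

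**Figure D1:**
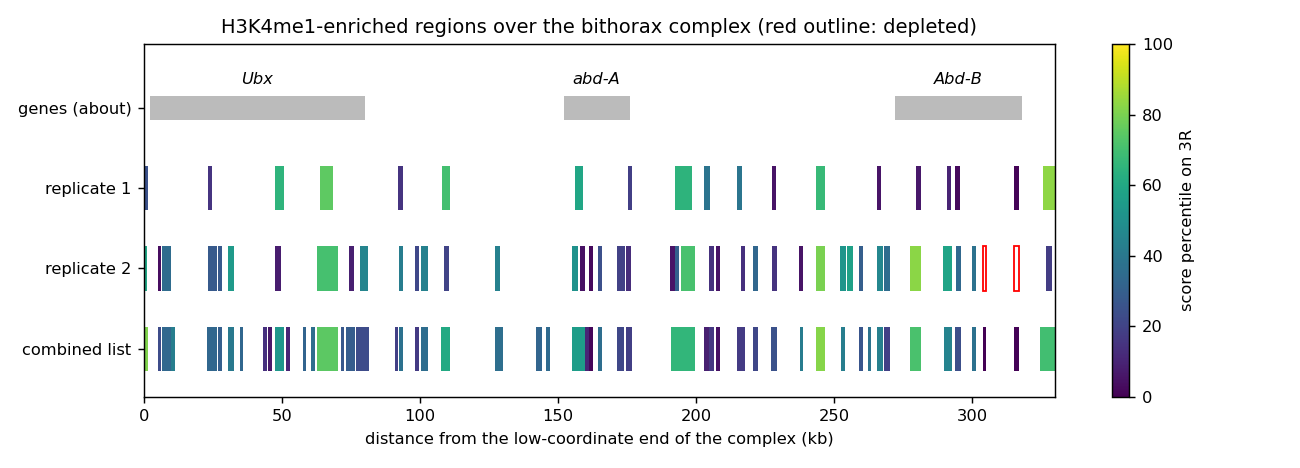
Map of the enriched regions of replicate 1, replicate 2 and the combined list across the 330 kb of the complex. The x axis gives the distance in kb from the low-coordinate end, bar colour gives the percentile of a region's score among all regions of 3R in its list, grey bars mark the approximate genes and red outlines mark the 2 depleted regions of replicate 2. The regions are mostly short, with 19, 41 and 53 of them in replicate 1, replicate 2 and the combined list. Each gene and interval holds some, and the interval between Ubx and abd-A is the least covered.

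Enriched regions covered less of the complex than of a typical window of 3R in both replicates, whereas in the combined list the complex was close to the typical window. The covered share was 14.1% in replicate 1 and 27.8% in replicate 2, a mean of 20.9% ± 9.67 (SD, n = 2), and 36.8% in the combined list. In 2692 windows of the same width, placed every 10 kb along 3R outside the complex, the median covered share was 29.5% in replicate 1, 33.6% in replicate 2 and 37.7% for the combined list. Of these windows, 9.03% were covered as little as the complex or less in replicate 1, 35.3% in replicate 2 and 48.1% for the combined list. By the mean of the 2 replicates, 22.8% of windows were covered as little as the complex or less. Windows without a region were left out of region counts, widths, scores, gaps and ratios, which leaves 2690 where replicate 2 enters. The windows overlap one another, so these shares are descriptions, and no test over the 2 ChIP samples was run. Replicate 2 covered 1.97 times as many bases of the complex as replicate 1, where the median window had 1.14 times as many and 0.112% of windows had a ratio as high or higher.

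**Figure D2:**
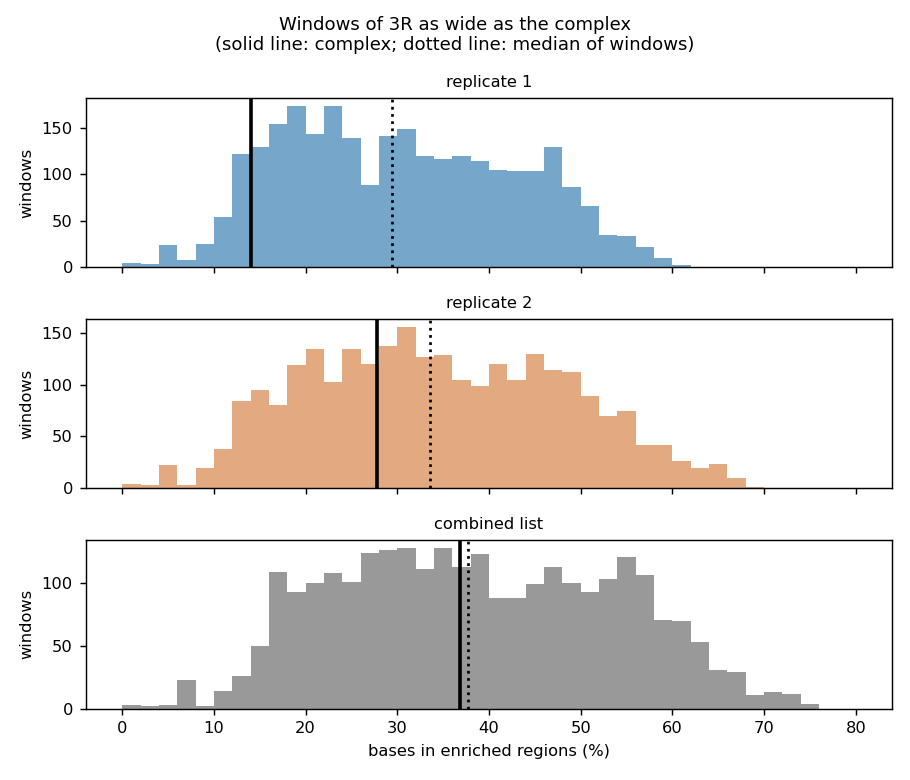
Histograms of the percentage of bases in enriched regions over 2692 windows of 3R as wide as the complex, for replicate 1, replicate 2 and the combined list. The solid line marks the complex (14.1%, 27.8% and 36.8%) and the dotted line the median window (29.5%, 33.6% and 37.7%). The solid line lies left of the dotted one in each panel and comes close to it in the combined list.

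The complex was marked by short regions of low score, unusually many in the combined list only, and no region of at least 10 kb lay wholly inside it. In the combined list its 53 regions outnumbered those of every one of the 2692 windows, which held 27 at the median and 52 at most. Of these 53 regions, 14 met no region of either replicate. Replicate 2 held 41 regions in the complex, where the median window had 29 and 15.5% of windows had as many or more. Replicate 1 held 19, where the median window had 20. Median width was 2061 bases in replicate 1, where the median over windows was 3456 bases and 0.334% of windows were as low. In replicate 2 it was 1930 bases against a window median of 2692, with 1.82% of windows as low, and in the combined list 1859 against 2989.5, with 2.08% as low. Regions under 2 kb made up 9 of 19 in replicate 1, 24 of 41 in replicate 2 and 32 of 53 in the combined list. On all of 3R they made up 19.6%, 33.0% and 34.6% of the regions of the same lists.

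Regions of at least 10 kb, which make up 10.7%, 5.70% and 11.0% of the regions of 3R in replicate 1, replicate 2 and the combined list, numbered 0, 0 and 1 in the complex. The single one, 3R:12804786-12818203 of the combined list (13.4 kb, score 0.69), lies past Abd-B and has 38.9% of its bases inside the bounds. Of the bases covered within the complex, 22.2% in replicate 1, 8.35% in replicate 2 and 18.6% for the combined list lay in regions of at least 5 kb. The median window had 62.9%, 50.4% and 64.9%, and at most 2.23% of windows were as low in any list.

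The score is the authors' own value per region, with no stated scale, and is compared here only within a list. The median score in the complex was 0.53 in replicate 1, 0.47 in replicate 2 and 0.36 for the combined list, where the medians over windows were 0.68, 0.62 and 0.49. The windows with a median score as low made up 1.19%, 2.83% and 2.27%. Ranked among all regions of 3R in the same list, the regions of the complex had a median percentile of 24.9 in replicate 1 and 30.4 in replicate 2, a mean of 27.6 ± 3.89 (SD, n = 2), and 32.4 in the combined list. Ranked only among regions of like width, the median percentile was 63.5 in replicate 1 and 47.2 in replicate 2, a mean of 55.3 ± 11.6 (SD, n = 2), and 38.6 in the combined list.

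**Figure D3:**
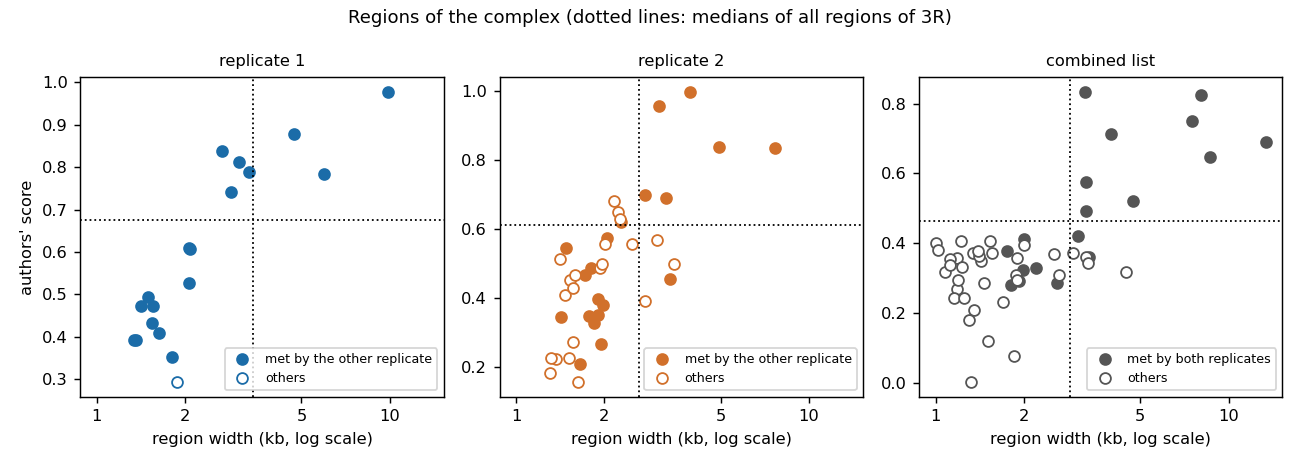
Authors' score against width (kb, log scale) for each region of the complex in replicate 1, replicate 2 and the combined list. Filled points are regions met by the other replicate (in the combined list, by both), open points are the others, and dotted lines are the medians of all regions of 3R. In the combined list 44 of 53 points lie at or below the median score, and all 9 above it are filled, as are 96.0% of such regions on 3R.

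The 5 main stretches differed in how much of them was marked, and the interval between Ubx and abd-A was the least covered in all 3 lists. Its covered share was 5.88% in replicate 1 and 14.6% in replicate 2 (10.2% ± 6.14, SD, n = 2). The other stretches averaged 18.8% ± 5.39 for Abd-B, 22.0% ± 14.0 for Ubx, 25.1% ± 11.1 for the interval between abd-A and Abd-B and 30.8% ± 21.9 for abd-A (SD, n = 2 each). The replicates of the interval between Ubx and abd-A (5.88% and 14.6%) lay below both of Abd-B (15.0% and 22.6%), with the nearest values of the 2 stretches close together. The other neighbours in this order overlapped and differed by less than the spread between the replicates. The gene abd-A was the most covered in replicate 2 and the combined list but not in replicate 1. With the higher-scoring 50% of each list its mean share was 5.98%, above that of the interval between Ubx and abd-A (1.86%) and below those of the other 3 stretches. Set against windows of 3R of its own width, the interval between Ubx and abd-A had 21.2% of windows as low or lower, the lowest share of the 5. The others were Ubx with 37.7%, Abd-B with 38.0%, the interval between abd-A and Abd-B with 40.1% and abd-A with 53.4%.

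**Figure D4:**
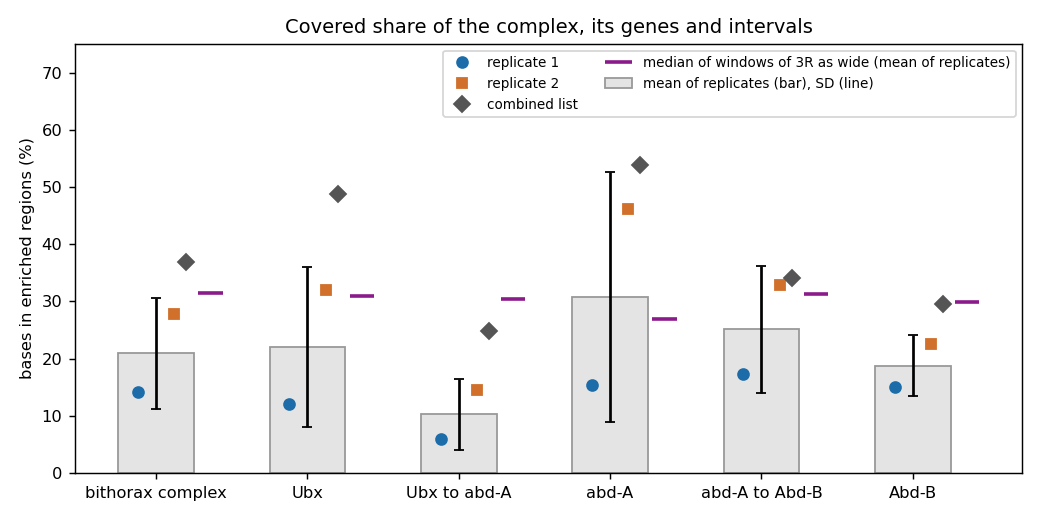
Percentage of bases in enriched regions for the whole complex, its 3 genes and the 2 intervals between them. Bars and lines give the mean and SD of the 2 replicates, points give each list, and purple ticks give the median of windows of 3R of the same width (mean of the replicates). Replicate 1 lies below replicate 2 in every stretch, and the interval between Ubx and abd-A is the lowest in each list.

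Ubx, the longest of the 3 genes, carried the most regions of the 3 in the combined list, and 1 site held its widest and highest-scoring region in every list. Enriched regions covered 12.1% of Ubx in replicate 1, 32.0% in replicate 2 and 48.7% for the combined list, with 3, 9 and 17 regions assigned to it by most bases. The widest and highest-scoring of the combined list was 3R:12542637-12550163 (7.53 kb, score 0.75), about 10 kb below the high-coordinate end of the gene. Replicate 1 marked 3R:12543765-12548479 there (score 0.88) and replicate 2 marked 3R:12542521-12550170 (score 0.84), so both replicates shared 4.71 kb. These 3 regions ranked at the 74.8, 75.4 and 70.6 percentile of scores on 3R in the combined list, replicate 1 and replicate 2. Among regions of like width they ranked at the 39.1, 71.8 and 30.3 percentile of the same lists.

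Only 2 other stretches of Ubx were marked in both replicates, at 3R:12503260-12504675 and 3R:12527540-12529492. At the second of these the replicates ranked the region differently, at the 65.1 percentile in replicate 1 and the 7.99 percentile in replicate 2. The high-coordinate end of Ubx, at about 12560000, where transcription of the gene is known to start, lay inside a region in replicate 2 (3R:12558113-12561146, score 0.57) and in the combined list (3R:12556904-12561380, score 0.32). The nearest region of replicate 1 ended 11521 bases away. Of the 17 combined regions of Ubx, 3 met both replicates, 6 met replicate 2 alone and 8 met neither. On all of 3R, 61.4% of combined regions met both replicates and 8.33% met neither.

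The interval between Ubx and abd-A, which includes the bxd/pbx regulatory DNA, was marked at few sites. The lists held 2, 5 and 8 regions assigned to it in replicate 1, replicate 2 and the combined list. The widest and highest-scoring of the combined list was 3R:12587435-12590685 (3.25 kb, score 0.58). Replicate 1 gave it a score of 0.84 (70.1 percentile of 3R) and replicate 2 a score of 0.40 (20.3 percentile). The other stretch marked in both replicates was 3R:12572434-12573724. Beyond 12590727 the interval held long unmarked stretches: 25.9 kb, from 12609018 to 12634947, met no region of either replicate and reached into the low-coordinate end of abd-A. The combined list had 2 short regions there, 3R:12622182-12624078 (score 0.36) and 3R:12625651-12627054 (score 0.36).

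The gene abd-A was covered 3.02 times as much in replicate 2 as in replicate 1, the highest ratio of the 5 stretches. The covered share was 15.3% in replicate 1, 46.2% in replicate 2 and 53.9% for the combined list. The widest and highest-scoring region of the combined list was 3R:12634999-12639731 (4.73 kb, score 0.52), near the low-coordinate end of the gene. Replicate 1 marked it as 1 region (score 0.74) and replicate 2 as 2 regions (scores 0.62 and 0.21). The high-coordinate end of abd-A, at about 12656000, where its transcription is known to start, lay inside a region in all 3 lists. That region was 3R:12655198-12656698 in replicate 1 (score 0.49), 3R:12654770-12656606 in replicate 2 (score 0.33) and 3R:12654756-12656685 in the combined list (score 0.29). Among all regions of 3R its scores were low in each list, at the 18.6, 12.6 and 18.5 percentile. Against regions of like width they stood at the 85.7, 29.5 and 25.4 percentile of the same lists. Replicate 1 alone thus ranked the region high for its width. Between these 2 sites replicate 1 had an unmarked stretch of 16.0 kb, of which replicate 2 covered 43.1% with regions scoring between 0.16 and 0.43 and the edges of the regions on either side.

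The interval between abd-A and Abd-B, which includes many of the iab regulatory regions, held the highest-scoring region of the complex in the combined list, with close bounds in both replicates. Enriched regions covered 17.3% of it in replicate 1, 32.9% in replicate 2 and 34.1% for the combined list. That region was 3R:12723536-12726777 (3.24 kb, score 0.83). Replicate 1 marked 3R:12723550-12726615 there (score 0.81) and replicate 2 marked 3R:12723642-12726726 (score 0.96), which share 2.97 kb. It ranked at the 81.9, 67.6 and 79.7 percentile of 3R in the combined list, replicate 1 and replicate 2. The highest score of the complex was nevertheless low for a window of 3R. In the combined list the median window reached 1.22, and 1.45% of windows had a highest score as low as 0.83. Other regions held the highest scores of the complex in replicate 1 (0.98) and replicate 2 (1.00). There the median window reached 1.26 and 1.37, and 5.01% and 1.86% of windows were as low.

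The widest region of this interval in the combined list was 3R:12670796-12679452 (8.66 kb, score 0.65). Replicate 1 marked 3R:12672399-12678371 there (score 0.78), and replicate 2 marked 3 regions, of which the widest was 3R:12674674-12679618 (score 0.84). At 3R:12682805-12684885 of replicate 1 and 3R:12684804-12686570 of replicate 2 the replicates met over 82 bases only. The stretch of replicate 2 at 3R:12734682-12736842 (score 0.68, 57.4 percentile) met neither replicate 1 nor the combined list, and it was singled out after its values were seen. It is the only region of the complex in either replicate that the combined list left wholly uncovered.

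Abd-B differed from the other stretches in that 2 places towards its high-coordinate end were named depleted, though in replicate 2 only. Enriched regions covered 15.0% of Abd-B in replicate 1, 22.6% in replicate 2 and 29.6% for the combined list. The widest and highest-scoring region of the combined list was 3R:12757645-12761610 (3.97 kb, score 0.71), near the low-coordinate end of the gene. In replicate 2 the matching region 3R:12757577-12761500 had the highest score of the complex (1.00, 82.6 percentile of 3R). In replicate 1 it was 3R:12759879-12761510, with a score of 0.41 (6.63 percentile). The replicates also shared 3R:12770786-12772333 and 3R:12774219-12775724. The approximate high-coordinate bound of Abd-B, about 12798000, lay inside no region. The nearest one was 871 bases away in replicate 1, 8830 in replicate 2 and 900 for the combined list. As the bound is approximate, distances of 871 and 900 bases do not settle whether the gene's end was marked. These nearest regions of replicate 1 and the combined list scored at the 1.01 and 0.52 percentile of 3R.

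The first depleted region, 3R:12783831-12785237, had a score of -0.10 in replicate 2. The combined list named 3R:12783847-12785162 enriched at the same place, with a score of 0.0023, the lowest of its 53 regions in the complex. The second depleted region, 3R:12795358-12797028, had a score of -0.01. Replicate 1 named 3R:12795244-12797129 enriched there, with a score of 0.29 that was its lowest in the complex (1.01 percentile of 3R), and the combined list named 3R:12795242-12797100 enriched with a score of 0.08. All 3 enriched regions at these 2 places stood at or below the 1.01 percentile of enriched regions of 3R in their lists. The 2 regions are among 12 depleted regions of 3R and 39 of the series in replicate 2. Replicate 1 had 0 depleted regions in the whole series. The combined list had 17 in the series and 2 on 3R, but 0 in the complex.

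**Figure D5:**
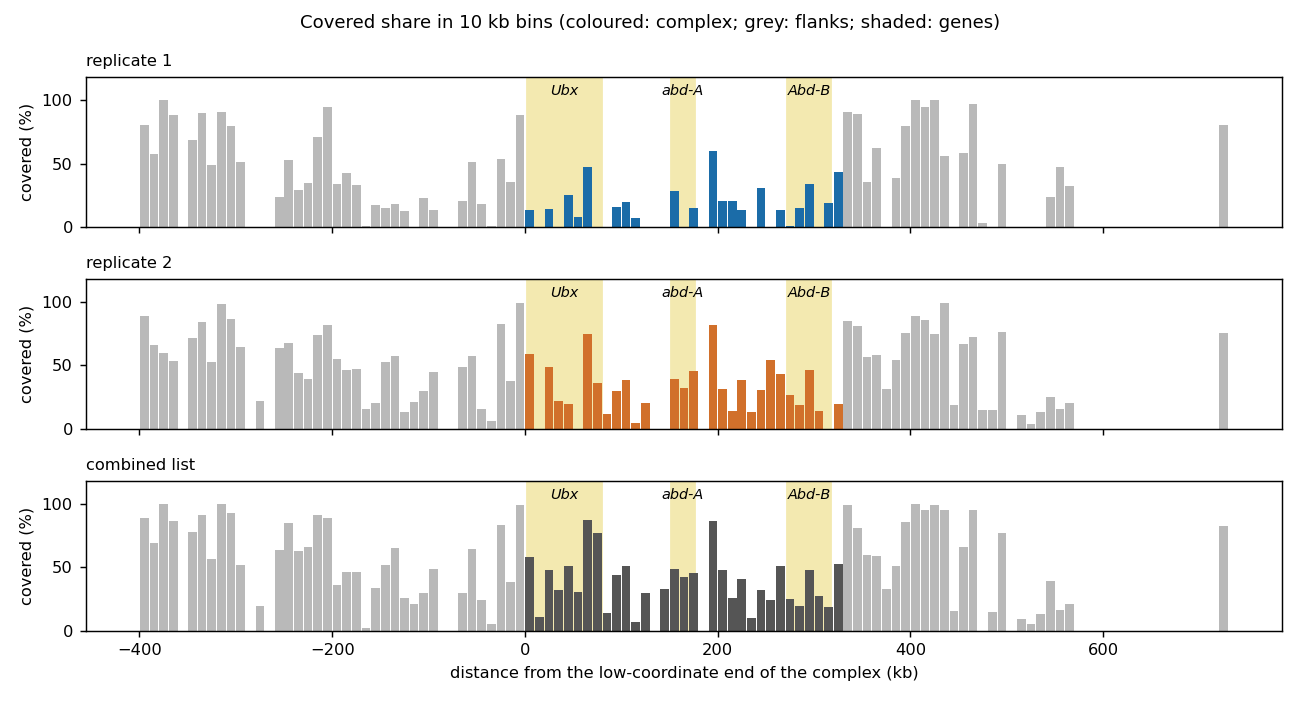
Percentage of bases in enriched regions per 10 kb bin over the complex (coloured) and 400 kb on each side (grey), for replicate 1, replicate 2 and the combined list. The x axis gives distance in kb from the low-coordinate end of the complex, and shading marks the approximate genes. Bins covered to at least 50% number 1, 4 and 8 of 33 inside, and 26, 34 and 35 of 80 outside.

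In the combined list the longest unmarked stretch of the complex was short by the standards of the arm, though its median gap was not. Gaps of at least 10 kb were frequent in both replicates. No enriched region of any list met 3R:12590727-12607008 (16.3 kb, between Ubx and abd-A), 3R:12656699-12670727 (14.0 kb, just past the high-coordinate end of abd-A) or 3R:12610000-12622181 (12.2 kb, between Ubx and abd-A). The longest gap of the combined list was 16368 bases, where the median window had a longest gap of 67926.5 bases and 1.45% of windows had one as short. Its median gap was 2384 bases, where the median window had 1654 and 72.9% of windows had one as short or shorter. Gaps of at least 10 kb numbered 5 in that list, where the median window had 4. The longest gap was 45579 bases in replicate 1, where the median window had 75284, and 25930 bases in replicate 2, where the median window had 71572. Replicate 1 had 13 gaps of at least 10 kb in the complex, more than the 11 of the window with the most. Replicate 2 had 8, where the median window had 4 and 4.65% of windows had as many or more. These gaps held 75.7% of the complex in replicate 1 and 40.7% in replicate 2, where the median window had 57.9% and 50.6%. The median gap was 14416 bases in replicate 1, where the median window had 3458.5 and 3.90% of windows had one as long. In replicate 2 it was 4186 bases, where the median window had 1714.5 and 6.02% of windows had one as long.

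The complex was bordered by denser marking on both sides. The 50 kb after it were covered to 55.6% in replicate 1, 62.5% in replicate 2 and 66.3% for the combined list, and the 50 kb before it to 39.5%, 48.2% and 50.0%. Bins of 10 kb covered to at least 50% numbered 1 of 33 in the complex against 26 of 80 in the 400 kb on each side in replicate 1. They numbered 4 against 34 in replicate 2 and 8 against 35 in the combined list. Bins without a marked base numbered 12 of 33 in the complex against 29 of 80 outside in replicate 1, which is nearly the same share. They numbered 6 against 21 in replicate 2 and 2 against 22 in the combined list, a smaller share in the complex. Most of the empty bins outside formed an unbroken run that was empty in every list. This run covers the bins centred 575 to 715 kb from the low-coordinate end of the complex. The run was singled out after its values were seen. Setting aside empty bins from the outside alone must lower the share there, so the next comparison says little about the complex. With the run set aside, empty bins made up a larger share in the complex than outside in both replicates. In the combined list their share in the complex stayed the smaller.

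The replicates shared a smaller part of their joint marked sequence in the complex than in nearly any window of 3R, while the part of replicate 1 that replicate 2 also marked was less unusual. The 2 lists had 34.2 kb in common. This was 32.9% of what either marked, 73.5% of what replicate 1 marked and 37.3% of what replicate 2 marked. The median window had 65.6%, 85.5% and 75.3% among the 2690 windows with regions in both replicates. As small a share was found in 0.0743% of these windows for the joint sequence and likewise for replicate 2, but in 9.48% for replicate 1. Of the 19 regions of replicate 1, 18 met replicate 2, where 93.3% of its regions on 3R did. Of the 41 regions of replicate 2, 20 met replicate 1, where 75.4% of its regions on 3R did.

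Split by score, the regions of replicate 2 in the complex met the other replicate less often than those of 3R in both classes, by their shares, and those of replicate 1 did not. The part of score in the low sharing was not tested. In replicate 2, 7 of the 10 regions of the complex above the median score of 3R met replicate 1 (94.7% on 3R), and 13 of the 31 at or below it did (56.1% on 3R). In replicate 1, all 7 above the median score of 3R met replicate 2 (98.0% on 3R), and 11 of the 12 at or below it did (88.5% on 3R).

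The combined list went beyond the replicates in the complex slightly further than in the most extreme of those 2690 windows. Of its bases in the complex, 19.9% were in no region of either replicate, where the median window had 4.13% and the highest 19.5%. Of its 53 regions, 18 met both replicates (61.4% on 3R) and 14 met neither (8.33% on 3R). A further 19 met replicate 2 alone and 2 met replicate 1 alone. All 9 combined regions above the median score of 3R met both replicates (96.0% on 3R), and 9 of the 44 at or below it did (26.9% on 3R). Of the 14 regions that met neither, 8 lay in Ubx, 3 between Ubx and abd-A, and 1 each in abd-A, the interval between abd-A and Abd-B, and Abd-B.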

How the data were processed

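H3K4me1 ChIP-seq regions of 2 ChIP samples were used. The submitters' processing notes name Bowtie 0.12.7 as the aligner, and coordinates are on FlyBase release 5, per the file headers. The region caller, its threshold and how the combined list was made were not given in the sources used here. With every region the authors deposited a score, which is positive where the region is named enriched and negative where it is named depleted. No read counts are given, so depth is unknown. The labels do not say that the replicates came from separate cultures, so their spread may be technical.

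Bounds of the complex and genes were taken as approximate positions. Overlapping regions of a list were merged for base counts and clipped to the bounds, and a region was assigned to the stretch holding most of its bases. Windows of 3R overlapping the complex were left out. Score percentiles used all enriched regions of 3R in the same list, and ranks by like width used 20 groups. Named regions were, in the combined list, the widest and the highest-scoring of each gene and interval. Regions of at least 10 kb of any list, the 3 longest gaps empty in all lists, and depleted regions were named too. Regions of the other lists at these places were named beside them. Other named regions, such as stretches marked in both replicates and regions at gene ends, fell outside this rule and were named with their values known. The regions, bounds and measures were chosen with earlier results of these data known. Interval sums were tested on simulated data in 5 trials. Python 3.11.15, NumPy 2.4.6, pandas 2.3.3 and Matplotlib 3.10.9 were used.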

Additional observations from a re-analysis of the deposited data

How the results depend on the processing

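Read depth is unknown, so its part in the differences between the lists was not tested. Of 61 alternatives, 18 moved a value by more than the limit set for it. That limit was the spread between the replicates or, for shared bases, which have no replicates, a 95% Wilson interval over bases. For the ranks of the number of combined regions and of the shared part of the union, it was a fixed difference in percent of windows. Neighbouring bases are not independent, so that interval is far too narrow and says little of whether the shared part moved. With 2 replicates, a covered share or score percentile with 1 left out always lies within their SD, so these alternatives say nothing about stability. With the combined list in place of the replicates the covered share was 36.8% and its rank 48.1% of windows. For Ubx the share was 48.7%, for Ubx to abd-A 24.8%, for abd-A 53.9% and for Abd-B 29.6%, and the median score percentile was 32.4. With the higher-scoring 50% of each list the covered share was 8.73% and its rank 7.17% of windows, with 11.5% for Ubx, 1.86% for Ubx to abd-A, 5.98% for abd-A, 11.2% for abd-A to Abd-B and 7.79% for Abd-B. The shared part of the union was then 24.6% and the longest gap empty in both replicates 45.6 kb. Among regions of like width the median score percentile was 55.3. Moving the bounds 10 kb outwards gave a shared part of 40.8%, and 10 kb inwards 33.2%. The cause of these shifts was not tested.

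Leaving out each replicate in turn gave covered shares of 14.1% to 27.8% for the complex, ranks of 9.03% to 35.3%, score percentiles of 24.9 to 30.4 and longest gaps of 25.9 to 45.6 kb. The covered share of Ubx ran from 12.1% to 32.0%, that of Ubx to abd-A from 5.88% to 14.6%, that of abd-A from 15.3% to 46.2%, that of abd-A to Abd-B from 17.3% to 32.9% and that of Abd-B from 15.0% to 22.6%. Among 82 windows side by side, a setting chosen after seeing the data, the most combined regions in a window was 49 and the lowest shared part of the union 47.4%. No paired analysis was possible because the inputs, which share replicate numbers with the ChIP samples, have no values here and no test was run.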
